A study of Mus musculus with 2 samples.

Results

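Spp1- and Gpnmb-high macrophages were defined by a rule on single barcodes, and 476 of 27740 kept barcodes met it. A barcode, which stands for a cell in droplet data, was kept if it held 1000 or more unique molecular identifiers (UMIs, counted RNA molecules) and 500 or more genes, with no more than 20% of the UMIs mitochondrial. It needed at least 5 UMIs over the macrophage genes Ms4a7, Pf4 and Lyz2 and at least 10 over Spp1 and Gpnmb. P2ry12, Tmem119, Cx3cr1, Siglech and Gpr34, which mark microglia, had to stay under 0.15% of its UMIs, and the pigment cell genes Pmel, Mlana, Tyrp1 and Dct under 1%. The levels of these 14 genes therefore describe the choice of cells and are given with no test.

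The cells came from C57BL/6J mice that were 10 weeks old, in 1 library per group. In the metastasis group, 3 brains that had received the mouse melanoma line B16/F10-BrM by intracranial injection were pooled, and the naive group was a pool of 3 brains of naive mice. Myelin had been removed from both suspensions, and beads that bind the astrocyte surface antigen ACSA-2 were used for enrichment, so macrophages were cells carried along, and their share is not that of the brain. The titles of the records were swapped by the submitters at a later date, and the groups here follow the current ones. With pooled animals and 1 library per group, nothing could be tested between the conditions, and the intervals given are 95% counting intervals that leave out the spread between animals.

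Macrophages in the brain comprise resident microglia, macrophages of the meninges, perivascular spaces and choroid plexus, and cells that enter from blood as monocytes. Spp1 encodes osteopontin, a secreted phosphoprotein that binds CD44 and integrins. Gpnmb encodes a transmembrane glycoprotein of macrophages and pigment cells that is found on lysosomes and phagosomes. Both are known from macrophages that take up lipid, myelin or dead cells in tumours and injured tissue, often together with Trem2, a lipid receptor, Apoe, a lipid carrier, Fabp5, a fatty acid binding protein, and lysosomal proteases. Pigment cells and melanomas can make both as well.

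The 5 windows below are the 250 bases before the start of Spp1, of Gpnmb, and of 3 genes of phagocytes or lysosomes. Spp1 and Gpnmb are shown because they chose the cells, and the other 3, Trem2, Cd68 and Lamp1, were picked by name. They are from RefSeq on GRCm38.p6, 5′ to 3′, and none overlaps an exon annotated in GENCODE M21. Capitals mark 2 motifs: CACGTG, the core of the element bound by TFEB, TFE3 and MITF at lysosomal genes, and TGANTCA, the AP-1 site. Both motifs read the same on either strand.
Spp1, chr5:104434861-104435110, plus strand: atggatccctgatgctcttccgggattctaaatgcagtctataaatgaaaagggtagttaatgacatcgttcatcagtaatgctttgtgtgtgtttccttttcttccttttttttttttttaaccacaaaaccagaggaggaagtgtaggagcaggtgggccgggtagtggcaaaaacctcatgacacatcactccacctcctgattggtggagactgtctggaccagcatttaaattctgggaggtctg
Gpnmb, chr6:49036268-49036517, plus strand: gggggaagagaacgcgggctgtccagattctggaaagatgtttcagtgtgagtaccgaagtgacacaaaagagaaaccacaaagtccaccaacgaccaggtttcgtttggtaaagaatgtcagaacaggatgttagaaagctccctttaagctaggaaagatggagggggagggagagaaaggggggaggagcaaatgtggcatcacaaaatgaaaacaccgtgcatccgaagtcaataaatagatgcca
Trem2, chr17:48346151-48346400, plus strand: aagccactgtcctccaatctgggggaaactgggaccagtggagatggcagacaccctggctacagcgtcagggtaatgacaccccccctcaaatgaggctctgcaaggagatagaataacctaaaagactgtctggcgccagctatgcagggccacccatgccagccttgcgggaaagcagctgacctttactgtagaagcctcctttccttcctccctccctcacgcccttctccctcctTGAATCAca
Cd68, chr11:69666171-69666420, minus strand: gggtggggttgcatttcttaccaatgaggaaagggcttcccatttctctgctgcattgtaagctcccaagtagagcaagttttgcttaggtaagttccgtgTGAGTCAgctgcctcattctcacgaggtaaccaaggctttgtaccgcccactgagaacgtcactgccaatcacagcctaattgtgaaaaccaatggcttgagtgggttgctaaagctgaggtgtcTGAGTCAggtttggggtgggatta
Lamp1, chr8:13158911-13159160, plus strand: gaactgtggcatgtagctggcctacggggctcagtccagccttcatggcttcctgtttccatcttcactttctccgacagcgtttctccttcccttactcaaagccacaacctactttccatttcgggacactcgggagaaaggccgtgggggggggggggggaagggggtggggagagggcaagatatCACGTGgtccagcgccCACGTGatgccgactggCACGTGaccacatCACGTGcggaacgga
The letters CACGTG stood 4 times in the Lamp1 window and in none of the other 4. TGANTCA stood 2 times in the Cd68 window and 1 time in the Trem2 window. The Spp1 and Gpnmb windows held neither, which says only that these letters are not there. Of all 32851 promoter windows of this length, 6.02% held CACGTG and 6.75% held TGANTCA. The 3 windows picked by name all held a motif and do not represent lysosomal genes at large. Of 18 lysosomal genes with a promoter entry, 5 had CACGTG and 3 had TGANTCA.

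Nearly all of these macrophages came from the metastasis library. There, 474 of 13745 kept barcodes (3.45%, exact Clopper-Pearson interval 3.15 to 3.77) met the rule, against 2 of 13995 (0.0143%, 0.00173 to 0.0516) in naive. All macrophages, with or without Spp1 and Gpnmb, were 1226 of 13745 barcodes (8.92%) and 57 of 13995 (0.407%). Among macrophages, the Spp1- and Gpnmb-high cells were 38.7% (35.9 to 41.5) in metastasis and 3.51% (0.428 to 12.1) in naive. These intervals cover the counting of barcodes in 1 library each and make no comparison between the conditions. Fewer cells of this kind and a lower capture of them cannot be told apart.

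Both naive cells lay near the limit. The first had 2511 UMIs, of which 10 were Spp1, 1 was Gpnmb and 0 were Ms4a7, and 10.9% of its UMIs were mitochondrial. The second had 5574 UMIs, with 6 of Spp1, 6 of Gpnmb, 29 of Ms4a7 and 0.789% mitochondrial. Neither carried a UMI of Atp6v0d2, Gdf15 or Cd74, and 1 of them carried markers of another brain cell type. With 2 cells, no ratio between conditions was formed for any gene, and what follows is within the metastasis library. The 55 naive Spp1-low macrophages had 0 UMIs of Fabp4, Atp6v0d2, Gdf15 and Mmp12 among 261076. Their Cd74 stood at 5734 CPM, the UMIs of the gene per 1000000 UMIs summed over the cells. CPM are not scaled to length, since each molecule is counted at its 3' end.

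The 2 libraries held 89193669 (metastasis) and 69445557 (naive) UMIs and shared 53 kept barcodes, none of them a macrophage of this kind. Barcodes with at least 1% of UMIs from melanoma genes numbered 753 in metastasis and 20 in naive, and 0 of those 20 were among the metastasis barcodes with at least 1000 UMIs. The library labelled naive thus held melanoma-marked barcodes, and how they came there was not tested. In metastasis the 474 cells held 3855802 UMIs, with a median of 6777.5 UMIs and 2229.5 genes per cell. They were compared with 752 macrophages of the same rule with under 10 UMIs over Spp1 and Gpnmb (Spp1-low macrophages; 4144028 UMIs, median 3977.5) and with 1032 microglia (3922292 UMIs, median 2449.5), which had at least 5 UMIs and 0.15% of their UMIs from the 5 microglial genes. A limit of 10 UMIs is reached more easily in a deep cell, and the Spp1- and Gpnmb-high cells were the deepest of the 3 sets. Free RNA was read from barcodes with 10 to 100 UMIs, 256869 UMIs in all.

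Macrophage markers were present in nearly all of these cells. All 474 cells had Lyz2, a lysozyme of myeloid cells, with 5 UMIs in the lowest, 199 in the median and 1107 in the highest cell. Ms4a7, a membrane protein that separates monocyte-derived and border macrophages from microglia, ranged over 0, 11 and 72 UMIs and was seen in 94.5% of cells. Of genes outside the rule, C1qa, C1qb and C1qc were each found in at least 96.6% of the cells, and Cd68, a lysosomal macrophage protein, in 98.3%. Sall1, a transcription factor of microglia that the rule did not use, was low but present, at 11.9 CPM against 91.8 in microglia. In 125 of the 474 cells none of the 5 microglial rule genes had a UMI, whereas 96 cells lay between 0.10% and 0.15%, just under the limit.

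Markers of other cell types were unequally represented in these cells. Lyve1 and Cd163 of border macrophages had 2 and 1 UMIs over all 474 cells, while F13a1 stood at 219.9 CPM and Mrc1 at 162.6. The monocyte genes Ly6c2 and Ccr2 stood at 4.67 and 10.9 CPM, and the neutrophil genes S100a9 and Retnlg had 4 and 0 UMIs. S100a8, however, had 121 UMIs in 69 cells, and Mmp8 72 UMIs. The 6 neutrophil markers summed to at most 0.128% of a cell's UMIs, with 1 of the 6 at 0. Of the 3 measured against microglia, S100a8 (log2 ratio 3.36) and Mmp8 (3.19) were higher and Csf3r (-1.03) lower, with a median of 3.19. Pmel, which the rule limits, stood at 50.6 CPM, 3.15% of its level in free RNA, against 5.13% in Spp1-low macrophages, 5.74% in microglia and 6.45% in barcodes with at least 2% of UMIs from 6 oligodendrocyte genes (oligodendrocyte-marker cells). The sum of 8 melanoma markers, of which the rule limits 4, reached at most 0.181% of a cell's UMIs. Barcodes with 1% or more of UMIs from another brain cell type, or 3% or more from the choroid plexus gene Ttr, were 39 (8.23%), and most of them, 30, carried oligodendrocyte markers.

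Spp1 and Gpnmb, the genes of the rule, spread widely from cell to cell. Spp1 had 0 UMIs in the lowest, 19 in the median and 859 in the highest cell. Gpnmb had 0, 11 and 162. A UMI of Spp1 was found in 95.6% of the cells and one of Gpnmb in 95.4%. In Spp1-low macrophages 36.4% and 36.3% had one, and in oligodendrocyte-marker cells, which should make neither, 9.74% and 9.80% did (median 2807.5 UMIs per cell). After each cell was thinned to 1000 UMIs, the shares were 78.3% and 73.0% in the Spp1- and Gpnmb-high cells, 16.1% and 16.4% in Spp1-low macrophages and 3.70% and 3.70% in oligodendrocyte-marker cells. Melanoma-marked barcodes, which the rule leaves out, had a UMI of Spp1 in 67.2% and of Gpnmb in 98.0%. The highest 10 cells held 23.7% of all Spp1 UMIs and 13.4% of all Gpnmb UMIs.

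**Figure D1:**
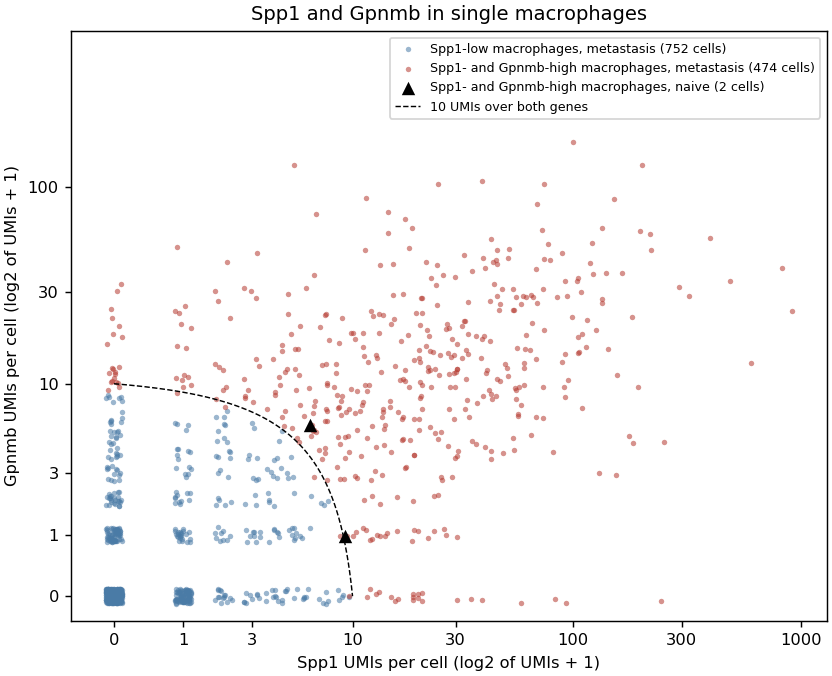
UMIs of Spp1 (x axis) and Gpnmb (y axis) in each macrophage, both on a log2 axis of UMIs + 1 with a small random shift, red for the 474 Spp1- and Gpnmb-high cells and blue for the 752 Spp1-low macrophages of metastasis, black triangles for the 2 naive cells. The dashed line marks 10 UMIs over both genes, and most red cells carry both genes while a minority lie along an axis with only 1 of them.

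The number of cells showed no gap at the limit. Of the macrophages with 8 to 9 UMIs over Spp1 and Gpnmb there were 33, and 36 had 10 to 11. Fabp5 stood at 1821 CPM just outside and 2204 CPM just inside, and Ctsd at 6853 and 7009 CPM. Other genes differed more across it. Cd74, the invariant chain of MHC class II, was at 2352 CPM outside and 1104 inside. Hmox1 was at 681 and 213 CPM, and Mmp12 at 19.3 and 161 CPM, from 4 and 34 UMIs.

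The Spp1- and Gpnmb-high cells had more RNA for fatty acid binding, lipid transport and lysosomal digestion than Spp1-low macrophages, and less for MHC class II. Of 10155 genes with at least 50 UMIs over both sets, 126 (1.24%) were at least 2-fold higher and 1262 (12.4%) at least 2-fold lower. Counts over all genes, here and below, include genes that chose the cells, such as Spp1 and Gpnmb. A 2-fold limit is a rule of size and no test, as cells of 1 library are not replicates. The median gene lay at a log2 ratio of -0.29, and with ratios centred on it 274 genes were higher and 743 lower.

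The Spp1-low set was mixed, which bears on those counts. Its barcodes held endothelial, neutrophil and monocyte markers that the Spp1- and Gpnmb-high cells hardly had, with neutrophil markers at up to 47.1% of a barcode's UMIs, and 123 of the 752 (16.4%) carried another brain cell type's markers. Each ratio was therefore also computed with both sets limited to barcodes with at least 0.3% of UMIs from C1qa, C1qb and C1qc and without such markers, 404 and 520 cells, called the C1q-bearing cells below. Among 8335 genes, 66 were then higher and 246 lower, and the median gene lay at -0.15. This limit was chosen after the data had been seen.

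The 12 genes with the highest ratios included several of lipid and lysosome biology. Fabp4, a fatty acid binding protein of fat cells and macrophages, stood at 93.9 CPM against 5.31, a log2 ratio of 4.14 (3.52 to 4.84). It had 0 UMIs in the median cell and up to 22, and 98 of 474 cells (20.7%) had any. Its relative Fabp5 (chr3:10012548-10016607) was seen in 98.5% of cells, with 0, 24 and 218 UMIs in the lowest, median and highest, and its level was 3949 CPM against 906, a log2 ratio of 2.12 (2.07 to 2.18). Oligodendrocyte-marker cells also held Fabp5, at 1164 CPM. Limited to C1q-bearing cells, the ratios were 3.18 for Fabp4 and 1.71 for Fabp5.

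Atp6v0d2, a subunit of the proton pump that acidifies lysosomes and the resorption space of osteoclasts, was at 69.2 CPM against 2.90, a log2 ratio of 4.58 (3.75 to 5.55). Only 99 of the 474 cells (20.9%) had a UMI of it, the highest 20. Cdo1, which oxidises cysteine, was at 72.9 CPM against 2.90, a log2 ratio of 4.65 (3.83 to 5.62). Mmp12, the macrophage elastase, was at 110 CPM against 13.8, a log2 ratio of 3.00 (2.60 to 3.42). A UMI of these genes was found in a minority of cells: 23.4% had Cdo1 and 76 of the 474 had Mmp12. Such shares depend on depth, and a cell without a UMI may still hold the RNA. After thinning to 1000 UMIs, Atp6v0d2 was found in 4.01% of the cells and Mmp12 in 6.96%. Within C1q-bearing cells the ratio of Atp6v0d2 was 4.11, that of Cdo1 was 3.63 and that of Mmp12 was 2.05.

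The other 7 genes included enzymes, vesicle proteins and a cytokine. Hmox1, which degrades haem, stood at 1135 CPM against 317 (log2 ratio 1.84, 1.75 to 1.93), with 0, 1 and 325 UMIs in the lowest, median and highest cell, and 10 cells held 38.9% of its UMIs. Gdf15, a stress-induced cytokine, stood at 271 CPM against 79.2 (1.78). Ctsd, the lysosomal aspartyl protease cathepsin D (chr7:142375911-142388038), stood at 10602 CPM against 3383 (1.65, 1.62 to 1.68), with 0, 65 and 512 UMIs per cell. Pld3, an enzyme of lysosomes, was at a log2 ratio of 1.83, Syngr1, a protein of vesicle membranes, at 1.73, the scaffold protein Ahnak2 at 2.47 and the apolipoprotein Apoc4 at 2.81. Among C1q-bearing cells all 7 kept a ratio above 1, from 1.09 for Gdf15 to 2.75 for Apoc4.

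Lipid handling was the list with the highest median. Among the 20 genes measured of its 21, 11 passed 2-fold upward and 0 downward, with a median log2 ratio of 1.04 beside -0.29 for all genes. Apoe was the most abundant gene of these cells, at 97928 CPM or 9.79% of their UMIs, with 17, 750.5 and 2714 UMIs in the lowest, median and highest cell, and its log2 ratio was 1.28 (1.27 to 1.29). Trem2 (chr17:48346401-48354147), whose promoter window is shown above, had a ratio of 1.36 (1.30 to 1.42), with 0, 13 and 63 UMIs per cell. Its signalling partner Tyrobp was at 0.81 and the cholesterol carrier Npc2 at 0.62. Further genes past 2-fold were Cst7, Cd36, Lipa, Clec7a, Itgax, Lpl and Plin2. Limited to C1q-bearing cells, 3 of 20 were past 2-fold, with a median of 0.64: Fabp4, Fabp5 and Cd9.

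Lysosomal genes moved the same way. All 23 were measured, 8 were at least 2-fold higher and 0 lower, and the median log2 ratio was 0.85. The 5 most abundant were Ctsd, Ctsb at 6808 CPM (ratio 1.13), Ctss at 5380 CPM (0.85), Psap, a precursor of sphingolipid activators, at 4296 CPM (0.87), and Ctsz at 2054 CPM (0.74). Creg1, a glycoprotein of endosomes and lysosomes, had a ratio of 1.62 (1.54 to 1.70) and Ctsl, a cysteine protease, 1.28. Only 2 of the 23 had a ratio below 0: Ctsc at -0.22 and Ctsk, the collagen-degrading protease of osteoclasts, at -0.62 with 26 UMIs. Of 22 measured in C1q-bearing cells 4 were past 2-fold and the median was 0.53: Ctsd at 1.20, Ctsl at 1.03, Creg1 at 1.15 and Atp6v0d2 at 4.11.

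Promoter letters were counted over the same genes as a description, rule genes included. CACGTG was found in a window of 17 of 95 genes (17.9%) that were at least 2-fold higher and had a promoter entry, of 69 of 959 (7.19%) that were lower, and of 838 of all 8037 (10.4%) measured. TGANTCA was found for 14 of 95 (14.7%), 74 of 959 (7.72%) and 435 of 8037 (5.41%). Of 18 lysosomal genes with an entry, 5 had CACGTG, among them Lamp1, and 3 had TGANTCA, among them Cd68. The RNA of the transcription factors differed little: Tfeb, Tfe3 and Mitf had log2 ratios of 0.07, 0.18 and 0.04, at 23.3, 47.2 and 41.2 CPM. The activity of these proteins was not measured, and a role of them was not tested.

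Some genes of iron and haem were also higher. Of 10 measured, 3 were at least 2-fold higher and 0 lower, with a median of 0.57. Besides Hmox1 these were Slc40a1, the iron exporter ferroportin, at 1.71, and Ftl1, the ferritin light chain, at 1.24 and 9739 CPM. Fth1, the heavy chain and the second most abundant gene of the cells at 32015 CPM, had a ratio of 0.81. Tfrc, the transferrin receptor that brings iron in, stood at 16.6 CPM against 24.1 (-0.54). The C1q-bearing cells had 2 past 2-fold, Hmox1 at 1.39 and Slc40a1 at 1.36.

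Antigen presentation by MHC class II ran in the opposite direction. All 7 measured genes of the list were at least 2-fold lower, with a median log2 ratio of -2.40. Cd74 stood at 948 CPM against 4802, with 0, 1 and 132 UMIs in the lowest, median and highest cell. H2-Eb1 had the lowest ratio, -2.83 (-2.91 to -2.76), followed by H2-Ab1 at -2.59, H2-Aa at -2.43 and Ciita, the regulator that switches the class on, at -2.40. H2-DMb1, which helps load peptides, was at -1.57. In the C1q-bearing cells all 7 remained past 2-fold with a median of -2.69. After thinning to 1000 UMIs, 25.5% of the Spp1- and Gpnmb-high cells and 63.6% of Spp1-low macrophages had a UMI of Cd74, against 4.10% of oligodendrocyte-marker cells. MHC class I genes showed no such gap: 0 of 11 passed 2-fold in either direction, and the median was -0.06, with B2m, the shared light chain, at 0.22 and H2-D1 at 0.55. Among C1q-bearing cells the median was -0.45 and 1, H2-Q7 at -1.14, was past 2-fold lower.

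**Figure D2:**
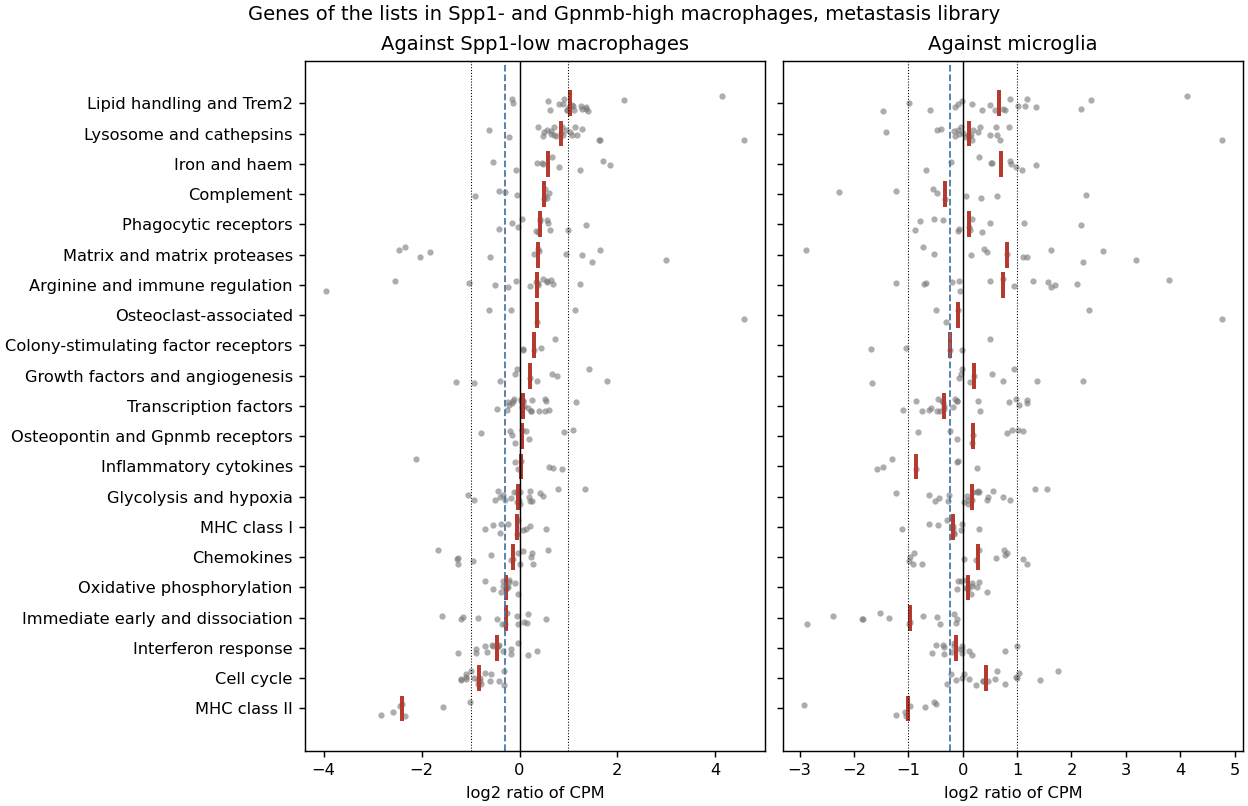
Each grey point is the log2 ratio of CPM of a gene of the list named on the y axis, in the 474 Spp1- and Gpnmb-high macrophages over Spp1-low macrophages (left) or over microglia (right), red bars are list medians, the dashed blue line is the median of all measured genes and dotted lines mark 2-fold. Against Spp1-low macrophages the list medians run from -2.40 for MHC class II to 1.04 for lipid handling.

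Signals to other cells were divided. No inflammatory cytokine was 2-fold higher: Il1b, the secreted interleukin-1 beta, was at 142 CPM against 610 (log2 ratio -2.11, -2.24 to -1.97), whereas Osm stood at 0.68 and Tnf at -0.03, and the median of 7 measured was 0.04. Of 15 chemokines 0 were higher and 4 lower, namely Ccl8 at -1.27, Ccl9 at -1.26, Cxcl10 at -1.25 and Cxcl1 at -1.67, with a median of -0.12. The monocyte attractant Ccl2 stood at 920 CPM against 944. In the C1q-bearing cells 6 of 15 chemokines were past 2-fold lower, with Cxcl9 at -1.39 and Cxcl2 at -1.01 as the additions. Of 16 interferon response genes 1, Ifitm3 at -1.26, passed 2-fold, and in the C1q-bearing cells 3 did, with Iigp1 at -1.42 and Gbp2 at -1.19. The interferon list had a median of -0.46, or -0.69 in the C1q-bearing cells.

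Among growth factors, Gdf15 and Igf1, insulin-like growth factor 1, were the 2 of 11 measured that were at least 2-fold higher. Igf1 stood at 439.9 CPM against 166, a log2 ratio of 1.41 (1.28 to 1.54), with a UMI in 77.6% of cells. Hbegf was lower at -1.31, and at 0.41 in the C1q-bearing cells, where Gdf15 was at 1.09 and Igf1 at 0.93. Vegfa, which drives vessel growth, was low in both sets at 22.0 and 29.2 CPM. The median of the list was 0.22.

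Markers used for alternatively activated and immune-regulating macrophages did not move as a group. Of 16 measured genes 1 was higher and 3 were lower, with a median of 0.36. The 1 was Lgals3, a galectin, at 2689 CPM against 1141 (1.24). Lower were Mgl2 at -3.95, Chil3 at -2.55 and the prostaglandin synthase Ptgs2 at -1.04, and in the C1q-bearing cells, with 0 higher and 2 lower, Lgals3 was at 0.77. Arg1, arginase 1, was at 24.6 CPM against 15.7 (0.65), but 1 cell with 32 UMIs held 33.7% of its UMIs and only 30 cells had any. Ido1 and Retnla had 0 UMIs in both sets, and Nos2 had 4 in the Spp1- and Gpnmb-high cells.

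Matrix genes went both ways. Of 13 measured, 4 were higher and 4 lower, with a median of 0.38. The higher were Mmp12, Adam8, a membrane protease (1.64), Ecm1, a secreted matrix protein (1.47), and Timp2, an inhibitor of matrix proteases, at 1027 CPM (1.28). Lower were Sparc at -2.47, Timp3 at -2.33, Timp1 at -2.04 and Fn1 at -1.83. In the C1q-bearing cells Sparc stood at -0.20 and Fn1 at -0.63, and of 12 measured only Timp3, at -1.38, was past 2-fold lower. There Mmp12, Adam8, Timp2 and Mmp8, a collagenase, were past it higher.

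Receptors for osteopontin and Gpnmb were near even between the sets. Of 9 measured 1, Itgax at 1.09, was past 2-fold, and the median was 0.05. Cd44 stood at 84.8 CPM against 77.5 (0.13), Itgb1 at 293 against 324 (-0.14) and Itgav at 56.3 against 49.5 (0.19). The lineage factors Spi1 and Irf8 had ratios of 0.03 and 0.40, and Bhlhe41 was the 1 of 23 measured transcription factors past 2-fold, at 1.15 (0.79 in the C1q-bearing cells). The list of 23 had a median of 0.07. The 5 receptors for colony-stimulating factors had a median of 0.30 and 0 past 2-fold. Csf1r, the receptor macrophages need to survive, stood at 391 CPM against 374.

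Some further lists changed with the make-up of the Spp1-low set. Phagocytic receptors had a median of 0.41, with 1 of 13, Cd36, past 2-fold, but 0.05 and 0 of 13 in the C1q-bearing cells. Complement genes had a median of 0.51 and 0 of 9 past 2-fold, but 0.02 and 1 lower in the C1q-bearing cells. This list holds C1qa, C1qb and C1qc, which set that limit, so its values there in part describe the choice of cells. Glycolysis and hypoxia genes had a median of -0.03, with Hilpda, a lipid droplet protein, at 1.34 and Ndrg1 at -1.06. Oxidative phosphorylation genes had a median of -0.28, that of all genes being -0.29. Cell cycle genes had a median of -0.83 with 5 of 18 at least 2-fold lower, but -0.35 and 1 of 18 in the C1q-bearing cells.

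Several of the lowest ratios belonged to other cells in the Spp1-low set. The neutrophil genes S100a9, S100a8, Ngp and Camp, the vessel genes Igfbp7, Igfbp3, Col4a1, Col4a2 and Emcn, the membrane protein gene Itm2a, the haemoglobin gene Hbb-bs and the monocyte gene Plac8 were the 12 lowest. S100a9 had 4 UMIs in the Spp1- and Gpnmb-high cells and 3823 in Spp1-low macrophages. Ngp and Camp had 0 UMIs and were at least 193-fold and 166-fold lower against a floor of 3 UMIs over the group. S100a8 changed sides, from a log2 ratio of -4.80 to 2.47 in the C1q-bearing cells. Monocyte genes stayed lower there: Plac8 at -5.51, Ccr2 at -4.76 and Ly6c2 at -4.68.

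**Figure D3:**
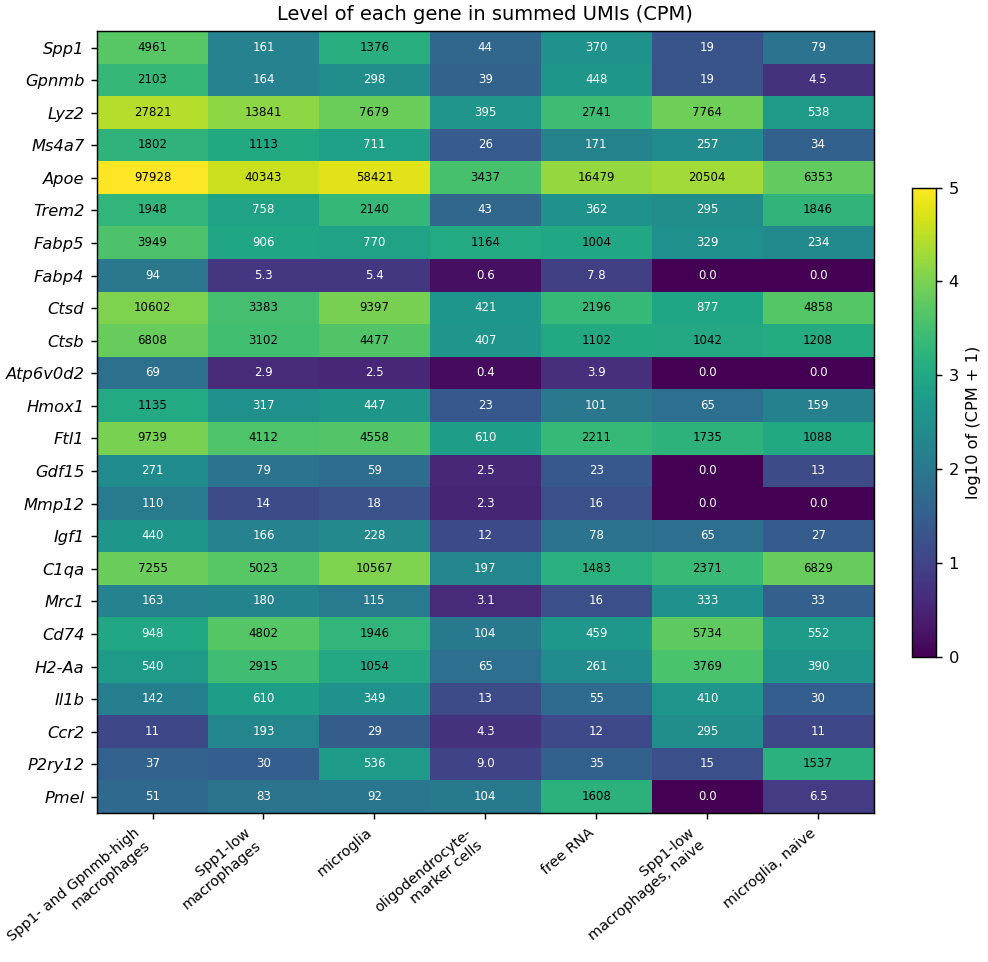
Levels in CPM of 24 genes (rows) in the summed UMIs of each population (columns), coloured by log10 of CPM + 1 with the CPM written in each field, where the first 5 columns are from the metastasis library and the last 2 from the naive library. Apoe reaches 97928 CPM in the Spp1- and Gpnmb-high macrophages, and Fabp4 and Atp6v0d2 reach 93.9 and 69.2 CPM there and are below 10 in every other column.

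Fabp5 and Ctsd rose step by step with the UMIs of Spp1 and Gpnmb rather than at the limit. Over macrophages with 0, 1 to 4, 5 to 9, 10 to 19, 20 to 49 and 50 or more such UMIs (344, 287, 121, 139, 174 and 161 cells), Fabp5 stood at 448, 1041, 1519, 2414, 3554 and 5198 CPM. Ctsd stood at 1955, 3573, 5833, 8005, 9312 and 13287 CPM. Cd74 went the other way over the same bands, at 6953, 3955, 2403, 1156, 927 and 847 CPM. Among the 3 bands of Spp1- and Gpnmb-high cells, Atp6v0d2 had 5, 49 and 213 UMIs, whereas C1qa was level at 7507, 7162 and 7193 CPM. The median UMIs per cell went from 3373 in the first band to 7876 in the last. With bands set by the percentage of UMIs instead, median depth was 4039 to 6604 UMIs, and Fabp5 ran from 645 CPM under 0.05% to 6089 at 1% and more, and Cd74 from 5149 to 634.

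**Figure D4:**
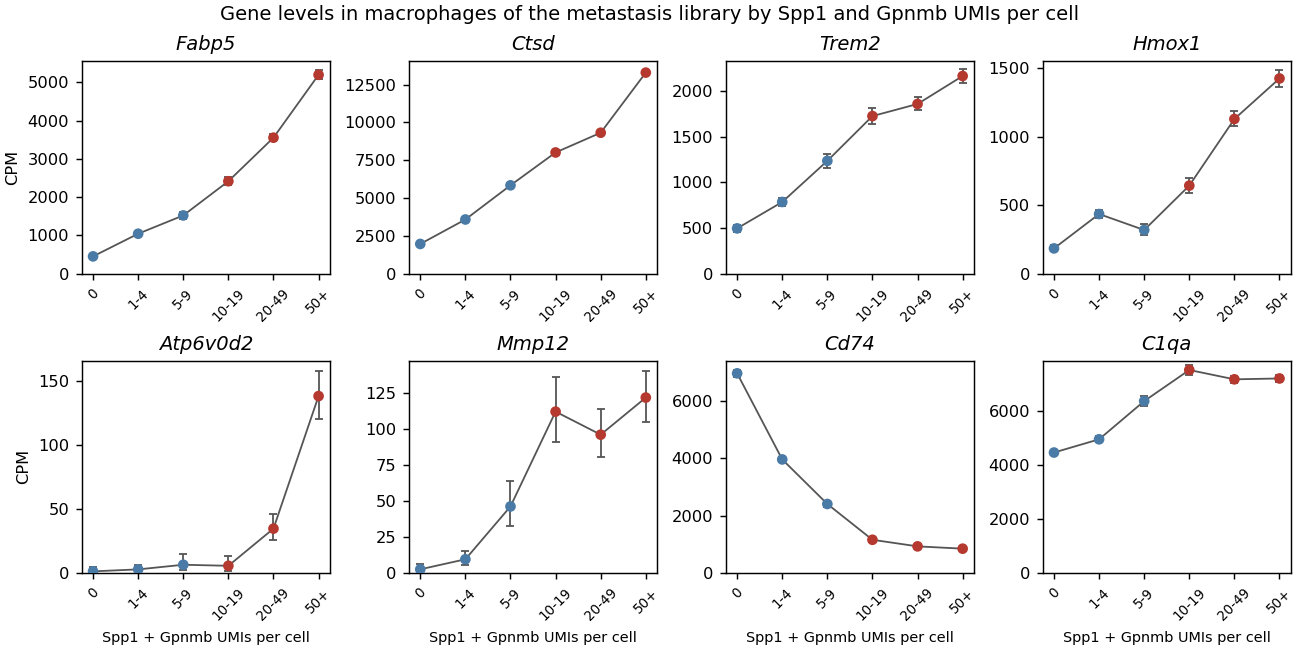
CPM of 8 genes (y axes, each from 0) in macrophages of the metastasis library by the number of Spp1 and Gpnmb UMIs per cell (x axis), blue for Spp1-low macrophages and red for Spp1- and Gpnmb-high cells, with 95% Poisson intervals that cover counting error only. Fabp5 and Ctsd climb through all bands, Atp6v0d2 is above 10 CPM only from 20 UMIs on, and Cd74 goes down from 6953 to 847 CPM.

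Against microglia, these macrophages had more RNA of the fatty acid binding proteins Fabp4 and Fabp5, of Atp6v0d2, Lgals3 and Acp5, and less of MHC class II and several microglial genes. Of 9820 measured genes, rule genes included, 233 (2.37%) were at least 2-fold higher and 892 (9.08%) at least 2-fold lower. The median gene was at -0.24, and centring on it gave 385 and 518. The highest ratios were those of Atp6v0d2 at 4.76 (3.86 to 5.84), Fabp4 at 4.13, Clec4d, a C-type lectin receptor, at 2.65, Saa3, a serum amyloid, at 2.40, Fabp5 at 2.36 (2.30 to 2.41), Acp5, the tartrate-resistant acid phosphatase of osteoclasts, at 2.33, Clec4n, the receptor dectin-2, at 2.29 and Lgals3 at 2.11. Saa3 stood at 282 CPM against 53.3 in microglia but was even with Spp1-low macrophages (-0.02). Acp5 had 0, 1 and 11 UMIs in the lowest, median and highest cell and a UMI in 64.1% of them.

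The 8 lowest ratios against microglia included 3 haemoglobin genes. Hbb-bs, Hba-a1 and Hba-a2, RNA of red blood cells, stood at -5.49, -4.58 and -4.47. Slc2a5, the fructose transporter, had 4 UMIs against 224 (-5.78). Crybb1 stood at -4.21, Slco2b1 at -3.12, Sparc at -2.88 and the immediate early gene Egr1 at -2.86 (-3.03 to -2.69). Of 14 immediate early and dissociation genes, 6 were lower and 0 higher, with a median of -0.98, against 3 lower and a median of -0.28 in the comparison with Spp1-low macrophages.

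Lists ranked in another order against microglia. Lipid handling had 7 of 20 genes past 2-fold higher and 1 lower (median 0.67): Trem2 was level at -0.14, and Cst7, a protease inhibitor of activated microglia, was lower at -1.47. Lysosomal genes had a median of 0.11, with Atp6v0d2 past 2-fold higher. Arginine and immune regulation had 6 of 15 higher and 1 lower (median 0.73), with Arg1 at 3.79, Lgals1 at 1.69 and Vsir at -1.23. Matrix genes had 6 of 13 higher and 1 lower (median 0.82), and Mmp12 stood at 2.58. MHC class II remained below in summed UMIs, with 4 of 8 at least 2-fold lower and a median of -1.0. The shares of cells lay closer. After thinning to 1000 UMIs, H2-Aa was found in 20.3% of these macrophages and 22.5% of microglia, and Cd74 in 25.5% and 33.1%. Inflammatory cytokines had 3 of 7 lower and 0 higher (median -0.86), namely Il1b, Il1a and Csf1. Iron and haem had 2 of 10 higher and 0 lower (median 0.70), and chemokines had 2 of 14 higher, Ccl6 and Ccl7, and 0 lower (median 0.27). In complement, Cfp, the stabiliser properdin, was higher at 2.26 and C4b lower at -1.23. Csf1r was at 391 CPM against 1257 (-1.68).

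Most of these cells carried both Spp1 and Gpnmb, and some carried mainly 1 of them. In 144 cells (30.4%, 26.3 to 34.7) Spp1 made up at least 80% of the UMIs over both genes, in 64 (13.5%, 10.6 to 16.9) at most 20%, and 266 (56.1%) lay between. In 319 cells both genes had at least 5 UMIs. In the 2 outer groups 4207 genes were measured, Spp1 and Gpnmb included. Of these, 114 (2.71%) were at least 2-fold higher in Spp1-led cells and 48 (1.14%) in Gpnmb-led cells. These counts were unsteady: the former was 43 in cells of 3000 to 10000 UMIs, and the latter was 24 in the C1q-bearing cells. The groups had a median of 6529.5 and 5723 UMIs per cell, and the median gene lay at 0.02.

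Spp1-led cells had more Cxcl10, Isg15, Cd5l, Ccl6, Tmem176a and Ttr. Cxcl10, an interferon-induced chemokine, stood at 210 CPM against 12.6 (log2 ratio 4.06, 2.82 to 5.69), although 10 cells held 75.2% of all Cxcl10 UMIs of the 474. Isg15, a ubiquitin-like interferon product, stood at 1.63, the chemokine Ccl6 at 1.72 and Tmem176a at 1.69. Cd5l, a secreted macrophage protein, stood at 2.87, but Gpnmb-led cells had only 7 UMIs of it. Of all Cd5l UMIs of the 474 cells, 10 cells held 57.2%. Ttr stood at 1.55, but at -0.27 without barcodes that carried other cell types' markers, and 1 cell held 19.8% of its UMIs. Hmox1 was at 1508 CPM in Spp1-led and 682 in Gpnmb-led cells (1.14).

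Gpnmb-led cells had more Cdo1, at 174 CPM against 28.8 (-2.59, -3.22 to -1.99), and more Fabp4, at 116 against 46.1 (-1.33). Ecm1 was at -1.46. Ptn at -2.14, Npy at -1.94 and Mfge8, a bridging protein for the uptake of dead cells, at -2.06 completed the 6. Ptn stood at 2011 CPM in oligodendrocyte-marker cells and 1086 in free RNA, above its 634 in Gpnmb-led cells, and the part of carried-over RNA was not tested. In the C1q-bearing cells Mfge8 stood at 0.32, on the other side.

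**Figure D5:**
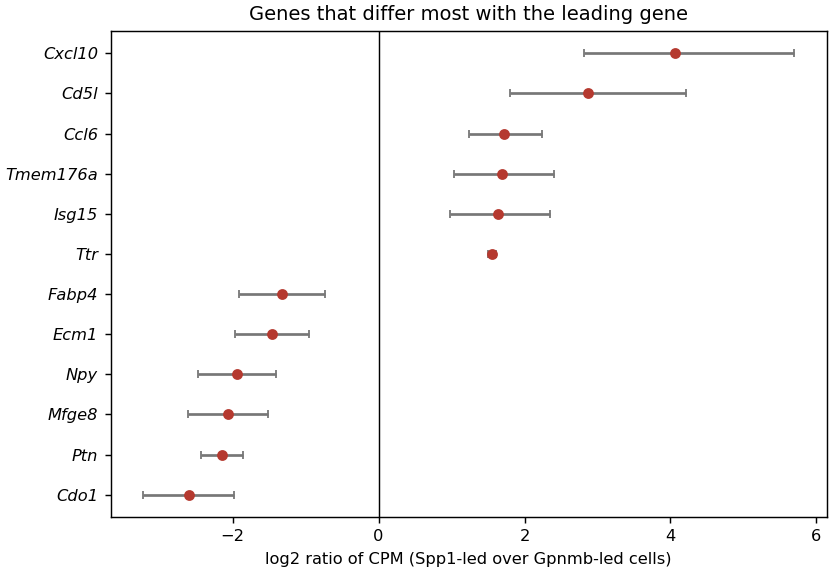
Log2 ratio of CPM of Spp1-led over Gpnmb-led cells (x axis) for the 6 genes highest in each group (y axis), with 95% counting intervals. Cxcl10 lies furthest to the Spp1 side at 4.06 and Cdo1 furthest to the Gpnmb side at -2.59.

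The genes found in a minority of cells overlapped in part. Of the 99 cells with a UMI of Atp6v0d2, 44 (44.4%) also had Fabp4, against 54 of 375 (14.4%) without it, 34 (34.3%) had Cdo1 against 77 (20.5%), and 22 (22.2%) had Mmp12 against 54 (14.4%). Cells with Atp6v0d2 were deeper, with a median of 8558 UMIs against 6370, and the part of depth in these counts was not tested. As levels, Fabp5 stood at 5789 CPM in cells with Atp6v0d2 and 3329 in those without, and C1qa at 6411 and 7539. Of 5 measured osteoclast genes Atp6v0d2 and Acp5 (1.14) were past 2-fold higher than in Spp1-low macrophages, with a median of 0.35. In the C1q-bearing cells 1 of 4 was, Atp6v0d2, while Acp5 stood at 0.61 and the median was 0.29. The osteoclast genes Dcstamp, Ocstamp, Oscar and Calcr had 0 UMIs in all 474 cells, Mmp9 had 1 and Nfatc1 stood at 22.3 CPM.

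A pair of further groups was drawn after the data had been seen. In 28 cells (5.91%, 3.96 to 8.42) H2-Aa, H2-Ab1, H2-Eb1 and Cd74 made up at least 1% of UMIs, and in 336 (70.9%) under 0.1%. Beside the genes of that split, Cxcl9, an interferon-gamma-induced chemokine, stood at 2306 CPM in the former and 91.2 in the latter (4.66), and Ly6a at 255 and 25.4 (3.33). Among all 474 cells, 10 held 57.1% of the Cxcl9 UMIs. Markers of other cell types moved with this split: 2 of 3 measured astrocyte markers were higher, Slc1a2 and Slc1a3 (list median 2.10), and 2 of 5 ependymal and 2 of 4 choroid plexus markers were lower (medians -0.86 and -0.78). Their part in these ratios was not tested. Of 5962 genes, those of the split included, 139 (2.33%) were at least 2-fold higher and 257 (4.31%) lower. Fabp5 and Spp1 stood at 3221 and 4950 CPM in the cells rich in MHC class II and at 4383 and 5646 in the others.

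In 35 cells (7.38%) at least 5 UMIs came from 8 cell cycle genes, among them Mki67 and Top2a. These cells had a median of 15275 UMIs, and a limit in UMIs favours deep cells. Spp1, whose limit in UMIs a deep cell meets at a lower share, stood at 1775 CPM against 4961 over all 474 cells. Fabp5 stood at 1967 against 3949 and Apoe at 49940 against 97928. Of 7104 genes, those of the split included, 372 (5.24%) were at least 2-fold higher than in the rest and 312 (4.39%) lower. Atp6v0d2 and Cdo1 were among the 6 lowest, at -3.15 and -2.96. Other cell types' markers moved with this split too: 4 of 6 oligodendrocyte markers (median -1.02), 3 of 5 ependymal (-1.06) and 2 of 6 astrocyte markers (-0.87) were lower, and 3 of 4 measured border macrophage markers, Mrc1 and Cbr2 among them, were higher (1.30). Their part was not tested.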

How the data were processed

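Cells were pooled per group and sequenced as 2 droplet libraries (10x 3' chemistry, per the labels). Reads were processed with STARsolo on GRCm38, per the submitters' processing notes, and versions and annotation are not given in the sources used here. The deposited files hold whole-number UMI counts per gene and barcode, unfiltered. The authors' cell calls are not used here.

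Barcodes were selected by the rule in the report. Raw counts were summed over the cells of a population and given as CPM (UMIs per 1000000). Ratios are log2 of CPM over CPM, without pseudocount, with an exact conditional counting interval at 95% that covers counting error only. A sum of 0 was set to 3 UMIs over the group. A gene was measured with at least 50 UMIs over both sets. Counts over all measured genes include the rule genes, which list counts and list medians leave out. With 1 library per group no test was possible.

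The members and gene lists were chosen with earlier results of these data known. Named genes were the rule genes, the up to 5 of highest CPM and up to 4 of largest ratio in each list, the 12 highest and 12 lowest ratios (10 CPM added, at least 100 UMIs) against Spp1-low macrophages, 8 each against microglia, 6 each between Spp1-led and Gpnmb-led cells, and the 10 most abundant genes; mitochondrial, ribosomal protein and unnamed predicted genes stayed out of the rankings. Mmp8 and the genes named in the groups by MHC class II and cell cycle were chosen after their values were seen, as were a few other genes that complete a count in a list. Shares of cells with a UMI were also taken after thinning each cell to 1000 UMIs. Microglia had at least 5 UMIs and 0.15% of UMIs from the 5 microglial genes. Oligodendrocyte-marker cells had at least 2% of UMIs from oligodendrocyte markers. Doublets were not removed: scrublet in scanpy 1.11.5 marked 0 barcodes in metastasis, so the highest 6% of scores were left out as an alternative. Other alternatives were the limits of the rule, a narrow depth range, the minimum UMIs per gene, a mean over cells, centring, and subtraction of free RNA. 4 alternatives were chosen after seeing the data. Promoter windows came from RefSeq on GRCm38.p6 and gene positions from GENCODE M21. The ratio code was tested on simulated data. Python 3.11.15, numpy 2.4.6, scipy 1.17.1, pandas 2.3.3 and matplotlib 3.10.9 were used.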

Additional observations from a re-analysis of the deposited data

How the results depend on the processing

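No paired analysis was possible because each group is 1 library. The share of kept metastasis barcodes was 4.44% with at least 2000 UMIs, and 4.33% and 2.44% with 5 and 20 UMIs over Spp1 and Gpnmb. Cells of 3000 to 10000 UMIs that met the rule were 2.38% of all 13745 kept barcodes. Those with the C1q limit and without mixed barcodes were 2.94% of the same 13745. Neither limit was put on the 13745, so 2.38% and 2.94% are not shares among barcodes under that limit. The share of macrophages, with each limit put on all macrophages, was 41.8%, 48.5%, 27.3%, 42.7% and 43.7% in the same order. It was 41.8% with the C1q limit alone. The naive library had 1 such cell with at most 10% mitochondrial UMIs, 0 with 20 UMIs over Spp1 and Gpnmb, and 1 each in cells of 3000 to 10000 UMIs, without the highest doublet scores, without mixed barcodes and with both limits.

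Counts of genes moved more. Against Spp1-low macrophages the higher genes were 274 after centring, 2747 with genes of at least 1 UMI, 68 with the C1q limit and 66 with both limits. The lower genes were 633 in cells of 3000 to 10000 UMIs, 743 after centring, 2128 and 5049 with genes of at least 20 UMIs and 1 UMI, 567 with the C1q limit, 824 without mixed barcodes and 246 with both limits. Against microglia the higher genes were 370 as a mean over cells, 385 after centring, 361 with free RNA subtracted and 2994 with at least 1 UMI. The lower were 1561 as a mean over cells, 518 after centring, and 1557 and 4300 with at least 20 UMIs and 1 UMI. Between Spp1-led and Gpnmb-led cells the higher genes were 194 and 184 with limits of 5 and 20 UMIs, 43 in cells of 3000 to 10000 UMIs, and 432 and 975 with at least 20 UMIs and 1 UMI. The lower were 74 as a mean over cells, 176 and 5182 with at least 20 UMIs and 1 UMI, 25 with the C1q limit and 24 with both limits. Low minimum counts admit genes of few UMIs, and the limits on barcodes leave fewer cells. For the other changes the cause was not tested.

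Of 820 log2 ratios under 16 alternatives, from 52 pairs of a named gene and a comparison, 813 kept their direction. The others were Ttr between Spp1-led and Gpnmb-led cells at -1.34 in cells of 3000 to 10000 UMIs, -0.27 without mixed barcodes and -0.17 with both limits, Mfge8 there at 0.43 with the C1q limit and 0.32 with both, and S100a8 against Spp1-low macrophages at 2.39 and 2.47. Of 672 list medians 617 kept their direction and 55 did not. A further 196 of the 820 ratios kept their direction but moved out of the main counting interval. Of the list medians, 143 moved outside the medians of their genes' interval limits. The planned removal of doublets by an automatic threshold was not run, since it marked 0 barcodes in metastasis. Depth limits what genes of few UMIs and the 64 Gpnmb-led cells can show, and 1 library per group leaves the spread between animals unknown.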

Other observations

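S100a8, a calcium-binding protein of neutrophils and monocytes, was found in 69 of the 474 Spp1- and Gpnmb-high macrophages (14.6%), with 121 UMIs and at most 13 in a cell, while S100a9, its usual partner, had 4 UMIs and Retnlg 0. Mmp8, a collagenase stored by neutrophils, was found in 49 cells with 72 UMIs. Among the 99 cells with Atp6v0d2, 28 (28.3%) had S100a8, against 41 of 375 (10.9%) without it. In the C1q-bearing cells the log2 ratios to Spp1-low macrophages were 2.47 for S100a8 and 2.01 for Mmp8.

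The limit on microglial genes left out 112 metastasis barcodes that met the other macrophage limits and had at least 10 UMIs over Spp1 and Gpnmb. Their microglial genes made up 0.15% to 0.444% of UMIs. Spp1 stood at 4887 CPM and Ctsd at 13935 CPM in them, above or near the levels of the cells under the limit. Fabp5 stood at 1679, Fabp4 at 13.5 and Atp6v0d2 at 9.64 CPM. Gpnmb, the other gene that chose the cells, stood at 838 CPM. The bands of Spp1- and Gpnmb-high cells described above had 1053, 1550 and 3216 CPM of it. Among 1032 metastasis microglia 110 (10.7%) had at least 10 UMIs over Spp1 and Gpnmb, and 1 of 814 (0.123%) in naive, with up to 314 and 145 UMIs of Spp1 in a cell.

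The 22 cells without a UMI of Gpnmb had Fabp5 at 1197 CPM and Gdf15 at 15.0 CPM. They held 133722 UMIs in all, so this level of Gdf15 rests on very few UMIs. The 21 cells without a UMI of Spp1, with 111641 UMIs in all, had Fabp5 at 3207 CPM and Gdf15 at 287 CPM. Cells with Arg1 numbered 30, and Hmox1 stood at 3192 CPM in them against 954 CPM in the other 444 cells. The 30 were deeper, with a median of 9656 UMIs against 6621. Of all Hmox1 UMIs of the 474 cells, 10 cells held 38.9%. The part of depth and of these few cells was not tested.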
